A study of Mus musculus with 8 samples.

Results

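The interleukin-1 and interleukin-33 system was examined through 8 genes chosen by name: the ligands Il1a, Il1b and Il33, the antagonist Il1rn, the signalling receptor chains Il1r1, Il1rap and Il1rl1, and the decoy receptor Il1r2. Of these, 7 had a row among the 693 genes with deposited levels, and Il33 is not analysed here. The tumours were of the mouse oral squamous carcinoma line 4MOSC1, grown in the right cheek of female C57BL/6N mice aged 4 to 6 weeks from 1000000 implanted cells, and whole-tumour RNA was read with a probe panel rich in immune genes. In the CXCL10 group 4 tumours had 10 µg of the chemokine CXCL10 in 50 µl of PBS injected into them on days 3, 6 and 9, and in the vehicle group 4 tumours had 50 µl of PBS alone at the same times. Mice were randomized when tumours measured 10 to 20 mm3 on average, and titles of both groups give day 10 as the day of collection. The chemokine was given into the tumour itself, so the comparison is of a local dose against buffer in tumours of a single line, and the question it addresses is which transcripts differed after the chemokine.

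IL-1 alpha and IL-1 beta bind the receptor chain IL1R1, which then recruits the accessory chain IL1RAP and signals through MyD88 to NF-kB. The antagonist encoded by Il1rn occupies IL1R1 without recruiting the accessory chain, and IL1R2 binds the ligands but lacks the intracellular signalling domain. IL-33, an alarmin held in the nucleus of epithelial, endothelial and stromal cells, signals through ST2, the product of Il1rl1, with the same accessory chain. Keratinocytes are a known store of IL-1 alpha, myeloid cells make most IL-1 beta, neutrophils carry much IL1R2, and ST2 marks mast cells, innate lymphoid cells of type 2 and a subset of regulatory T cells.

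The promoters of Il1a, Il1b and Il1r2 are shown because these 3 genes had 1 window each in the RefSeq table and shared part of their pattern over the tumours, as described further on. All 7 measured members matched a RefSeq window of 300 bases, which runs from 250 bases before to 50 after a transcript start, on GRCm38.p6. The window of Il1a is chr2:129309923-129310222 on the minus strand, that of Il1b is chr2:129371090-129371389 on the minus strand, and that of Il1r2 is chr1:40085843-40086142 on the plus strand. Each is written 5′ to 3′ with every match to a searched motif in capitals.
Il1a: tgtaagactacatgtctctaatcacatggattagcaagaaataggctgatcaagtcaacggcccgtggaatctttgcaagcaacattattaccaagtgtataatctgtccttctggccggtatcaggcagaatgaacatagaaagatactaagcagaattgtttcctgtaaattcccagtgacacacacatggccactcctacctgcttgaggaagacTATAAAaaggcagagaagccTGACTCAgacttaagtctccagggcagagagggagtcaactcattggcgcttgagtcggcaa
Il1b: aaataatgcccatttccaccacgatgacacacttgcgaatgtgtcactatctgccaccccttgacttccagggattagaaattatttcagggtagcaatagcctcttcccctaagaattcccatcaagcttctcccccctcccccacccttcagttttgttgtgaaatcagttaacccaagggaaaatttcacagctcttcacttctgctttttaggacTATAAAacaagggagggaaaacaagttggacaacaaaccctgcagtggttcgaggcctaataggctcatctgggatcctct
Il1r2: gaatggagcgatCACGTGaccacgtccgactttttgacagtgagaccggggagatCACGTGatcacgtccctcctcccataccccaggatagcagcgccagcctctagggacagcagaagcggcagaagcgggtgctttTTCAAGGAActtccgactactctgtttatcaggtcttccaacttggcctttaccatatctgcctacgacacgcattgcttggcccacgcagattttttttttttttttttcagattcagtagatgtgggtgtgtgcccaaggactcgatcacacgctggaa

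The motifs were searched on both strands as the letters TATAAA for the TATA box, TGANTCA for the AP-1 site, TTCNNNGAA for the gamma-activated site and CACGTG for the E-box, and the kappa B site was searched as a pattern of 10 letters. No matches overlapped in these windows. The TATA box letters lay 32 bases before the start in Il1a and 31 bases before it in Il1b, and 13.6% of the 32851 RefSeq windows hold them. Il1a also held an AP-1 match (TGACTCA) 12 bases before the start, with such letters in 7.81% of windows. Il1r2 had no TATA match and held a pair of E-box matches, 238 and 195 bases before the start (7.15% of windows), and a gamma-activated match (TTCAAGGAA) at 111 bases (8.30% of windows). None of the 3 windows held the kappa B pattern, which occurs in 1.63% of windows and, for Il1rn, at 1 site that lies in 2 overlapping windows. These matches describe letters in a window and no binding was measured.

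Levels are log2 normalized counts, or the same taken out of log2, on the authors' scaling, and differences are CXCL10 minus vehicle. Probes of different genes read on different scales, so levels are compared between tumours and not between genes. Total probe counts per tumour lay between 973697 and 1167694. Tumours are numbered 1 to 4 in each group, and the labels do not state that every one came from a separate mouse, so the p-values cover tumour-to-tumour spread that may be partly technical. The source labels give days 10 to 13 for vehicle and 14 to 17 for CXCL10 tumours, against day 10 in every title, and if they held, day and treatment could not be told apart. Of 14 listed epithelial genes 7 were measured, with a lowest count of 47, and Epcam, an epithelial adhesion molecule, stood at 11.85 ± 0.16 in CXCL10 and 11.51 ± 0.21 in vehicle tumours (SD, n = 4 each). The listed keratins and Trp63 had no row, so the squamous type itself was not checked. Counts of the members ran from 317 to 8015 per tumour, where counting error is 0.081 to 0.016 on the log2 scale, below the spread between tumours of each gene. Signal of the negative control probes was not used here, so probe background was not assessed.

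None of the 7 measured members differed between CXCL10 and vehicle tumours in limma's test at an adjusted p under 0.05. The antagonist and both IL-1 ligands had slightly lower means after CXCL10, and the 3 signalling receptor chains had higher ones, by 1.24-fold to 1.27-fold. Of the 693 genes 0.289% were called, 2 higher and 0 lower. The members' adjusted p ran from 0.325 to 0.808, and 0 of 7 were called with voom weights. An unadjusted p under 0.05 was reached by 0 of 7, against 19% of the panel (15% higher and 4.04% lower). In 0 of 7 did the groups separate without overlap, against 10.8% of the panel (7.79% higher and 3.03% lower). Means were above vehicle in 4 of 7 members, against 69.6% of the panel, and the median difference was 0.11 over the members and 0.13 over the panel. Median-of-ratios scaling moves every difference by the same amount, and with it both medians lay near 0, at 0.0050 over the members and 0.021 over the panel.

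**Figure D1:**
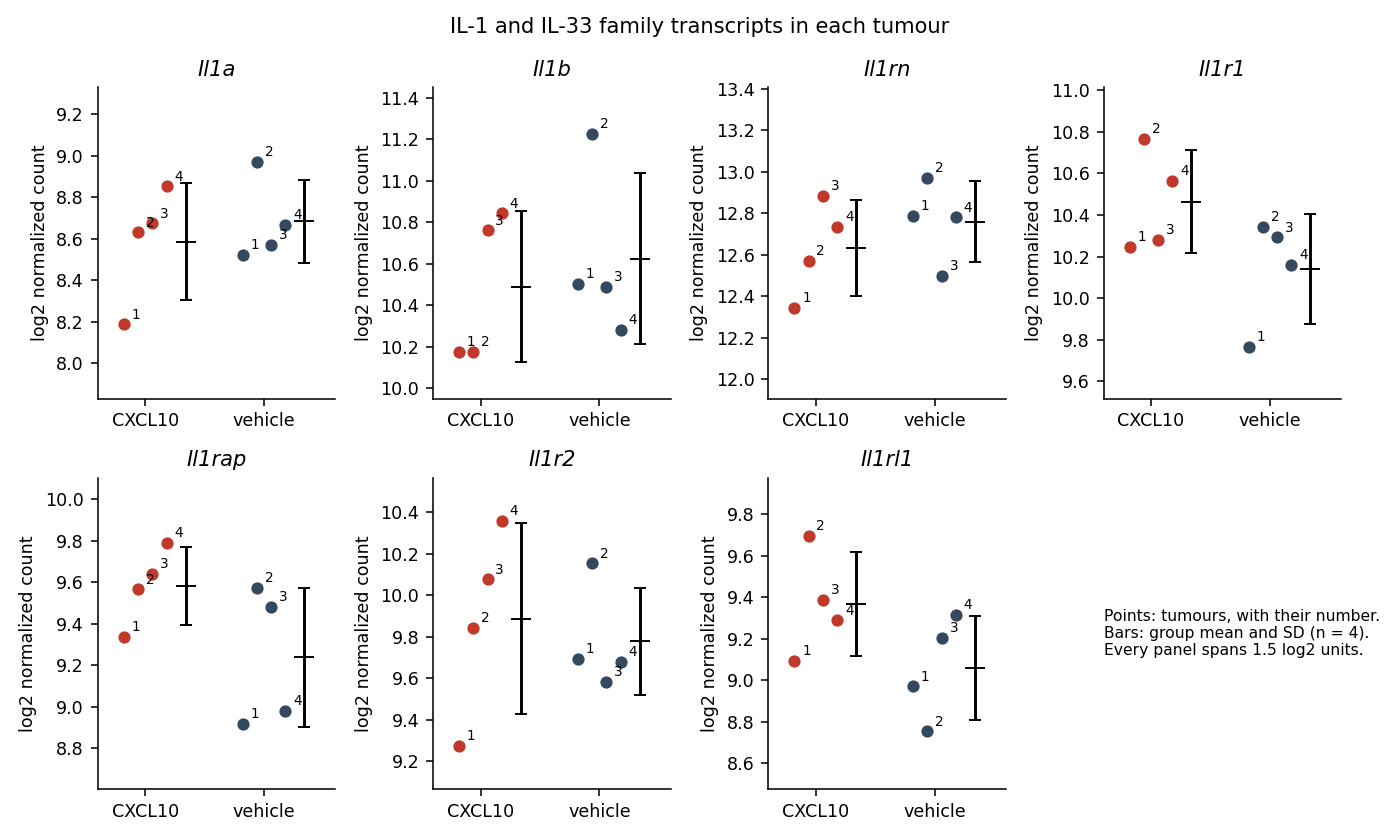
Log2 normalized count of the 7 measured members in each tumour, CXCL10 in red on the left and vehicle in dark blue on the right. Points carry the tumour number, bars give the mean and SD (n = 4), every panel spans the same height, and the groups overlap in all 7 genes.

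Il1a (Entrez 16175), the ligand that epithelial cells release on injury, had normalized counts of 291, 396, 408 and 462 in CXCL10 tumours 1 to 4, against 368, 502, 380 and 407 in vehicle tumours 1 to 4. CXCL10 tumour 1 was the lowest of the 8 and vehicle tumour 2 the highest, and the other 6 lay between them. The mean log2 level was 8.59 ± 0.28 in CXCL10 and 8.68 ± 0.20 in vehicle tumours (SD, n = 4 each). The difference was -0.097 (SE 0.17, 95% interval -0.47 to 0.27, limma adjusted p = 0.761), or 0.935-fold. Without CXCL10 tumour 1 it was 0.036, so its sign rested on that tumour.

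Il1b (Entrez 16176), the ligand made as a precursor that caspase-1 cuts, had normalized counts of 1155, 1156, 1734 and 1835 in CXCL10 tumours 1 to 4, against 1450, 2393, 1434 and 1246 in vehicle tumours 1 to 4. The treated group split into a low and a high pair, and vehicle tumour 2 stood above all other tumours. Mean log2 levels were 10.49 ± 0.36 in CXCL10 and 10.62 ± 0.41 in vehicle tumours (SD, n = 4 each). The difference was -0.14 (SE 0.23, 95% interval -0.65 to 0.38, limma adjusted p = 0.764), which spans 0.635-fold to 1.30-fold. Without vehicle tumour 2 the difference was 0.065. In whole tumours, fewer cells of a type and less RNA per cell cannot be told apart.

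Il1rn (Entrez 16181) encodes the receptor antagonist, in a secreted form and in forms that stay in epithelial cells. It had normalized counts of 5196, 6072, 7555 and 6810 in CXCL10 tumours 1 to 4, against 7058, 8015, 5778 and 7030 in vehicle tumours 1 to 4. It varied least of the members, with a span of 1.54-fold over the 8 tumours, and again CXCL10 tumour 1 was lowest and vehicle tumour 2 highest. The difference was -0.13 (SE 0.15, 95% interval -0.46 to 0.21, limma adjusted p = 0.671). It was -0.029 without CXCL10 tumour 1 and -0.055 without vehicle tumour 2. RefSeq gives Il1rn 3 promoter windows, and the panel value does not tell its forms apart.

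Il1r1 (Entrez 16177), the signalling receptor of both IL-1 ligands, had normalized counts of 1214, 1743, 1242 and 1514 in CXCL10 tumours 1 to 4, against 869, 1300, 1253 and 1145 in vehicle tumours 1 to 4. CXCL10 tumours 2 and 4 lay above every vehicle tumour, while CXCL10 tumours 1 and 3 lay among them and vehicle tumour 1 was the lowest. Mean log2 levels were 10.46 ± 0.25 in CXCL10 and 10.14 ± 0.26 in vehicle tumours (SD, n = 4 each). The difference was 0.32 (SE 0.17, 95% interval -0.054 to 0.70), or 1.25-fold, and did not pass (limma adjusted p = 0.330).

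Il1rap (Entrez 16180), the accessory chain that the IL-1 and IL-33 receptors share, had normalized counts of 647, 758, 798 and 884 in CXCL10 tumours 1 to 4, against 484, 761, 715 and 505 in vehicle tumours 1 to 4. Vehicle tumours 1 and 4 were the lowest, and vehicle tumours 2 and 3 lay within the range of the treated group. Mean log2 levels were 9.58 ± 0.19 in CXCL10 and 9.24 ± 0.34 in vehicle tumours (SD, n = 4 each). The difference of 0.35 (SE 0.18, 95% interval -0.049 to 0.74), or 1.27-fold, had the smallest p among the members and did not pass (limma adjusted p = 0.325).

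Il1rl1 (Entrez 17082) encodes ST2, both as the membrane receptor of IL-33 and as a soluble form that captures it. It had normalized counts of 547, 830, 670 and 625 in CXCL10 tumours 1 to 4, against 502, 432, 590 and 638 in vehicle tumours 1 to 4. CXCL10 tumours 2 and 3 lay above every vehicle tumour, and vehicle tumour 2, the highest for all 3 of Il1a, Il1b and Il1rn, was here the lowest of the 8. The difference was 0.31 (SE 0.17, 95% interval -0.068 to 0.68), or 1.24-fold (limma adjusted p = 0.340). RefSeq gives this gene a pair of promoter windows, and its soluble and membrane forms were not told apart here.

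Il1r2 (Entrez 16178), the decoy receptor, had normalized counts of 619, 919, 1080 and 1313 in CXCL10 tumours 1 to 4, against 829, 1139, 766 and 820 in vehicle tumours 1 to 4. The treated group held both the lowest and the highest of the 8 tumours, a span of 2.12-fold, the widest among the members. Mean log2 levels were 9.89 ± 0.46 in CXCL10 and 9.78 ± 0.26 in vehicle tumours (SD, n = 4 each). The difference was 0.11 (SE 0.23, 95% interval -0.39 to 0.61, limma adjusted p = 0.808), and it was 0.32 without CXCL10 tumour 1 and -0.047 without CXCL10 tumour 4.

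A two-sided exact permutation test of each member alone gave the smallest p, 0.171, for Il1r1, Il1rap and Il1rl1, where the smallest that 4 against 4 tumours allow is 0.0286. Relative to the panel median of 0.13, Il1r1, Il1rap and Il1rl1 stood at 0.20, 0.22 and 0.18, Il1r2 at -0.016, and Il1a, Il1b and Il1rn at -0.22, -0.26 and -0.25. Under 3 other scalings (median-of-ratios, centring on the panel median and quantile) the differences of all 7 members kept their sign against 0, with Il1r2 between 0.0050 and 0.031. Median-of-ratios and centring each move the difference of every gene by the same amount, so a kept sign there depends only on the size of the first difference. All 7 intervals on the authors' scaling include 0 and together reach from -0.65 for Il1b to 0.74 for Il1rap, so they do not show that the groups were alike.

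**Figure D2:**
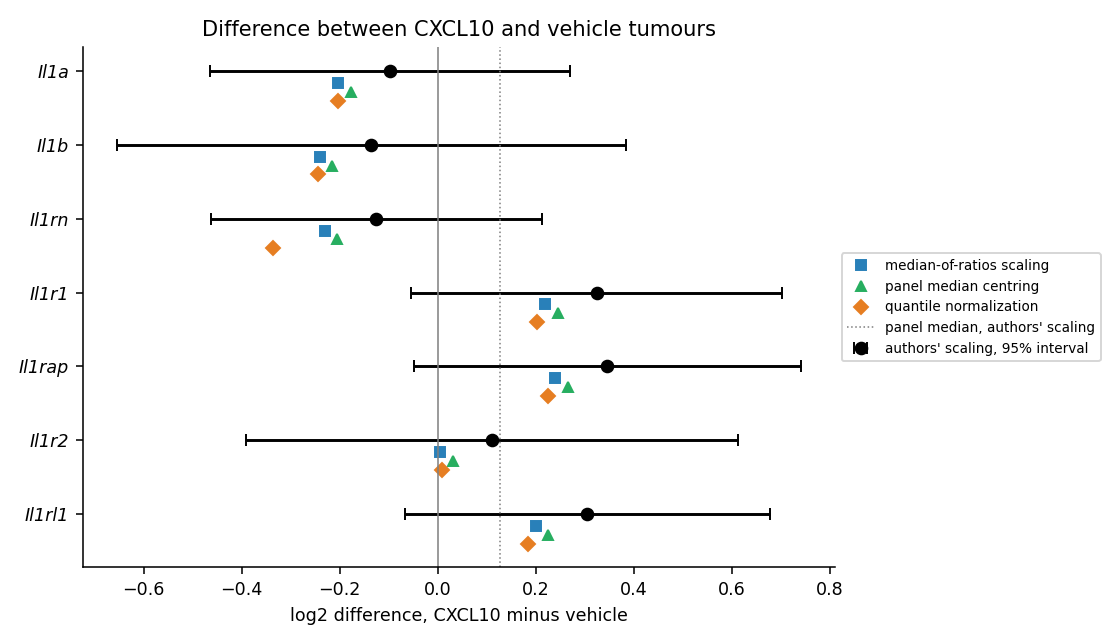
Log2 difference, CXCL10 minus vehicle, of each measured member. Black points and bars give the authors' scaling with 95% intervals, all of which include 0, coloured symbols give 3 other scalings, and the dotted line marks the panel median of 0.13.

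Ratios taken within a tumour do not depend on a scaling by 1 factor per tumour, but they do change with quantile normalization. Their absolute size reflects the probes, so only shifts between tumours are read, and no test was made. The log2 ratio of Il1b to Il1rn, ligand to antagonist, averaged -2.14 ± 0.21 in CXCL10 and -2.13 ± 0.33 in vehicle tumours (SD, n = 4 each), a difference of -0.010. That of Il1a to Il1rn averaged -4.05 ± 0.16 in CXCL10 and -4.07 ± 0.15 in vehicle tumours, a difference of 0.028. With quantile normalization these differences were 0.090 for Il1b to Il1rn, with its sign turned, and 0.13 for Il1a to Il1rn. Both ligand-to-antagonist ratios thus differed between the groups by less than their SD in either group, on both scalings. The ratio of Il1a to Il1b differed by 0.038, with ranges of -2.09 to -1.55 in CXCL10 and -2.25 to -1.62 in vehicle tumours.

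The ligand-to-decoy ratio, Il1b to Il1r2, was 0.90, 0.33, 0.68 and 0.48 in CXCL10 tumours 1 to 4, against 0.81, 1.07, 0.90 and 0.60 in vehicle tumours 1 to 4. It was lower on average after CXCL10 by 0.25 (-0.25 as CXCL10 minus vehicle), about the size of its SD of 0.25 in CXCL10 and 0.20 in vehicle tumours, and the groups overlapped. The ratio of signalling to decoy receptor, Il1r1 to Il1r2, was 0.97, 0.92, 0.20 and 0.20 in CXCL10 tumours 1 to 4, against 0.067, 0.19, 0.71 and 0.48 in vehicle tumours 1 to 4. Both groups therefore held tumours with a high and tumours with a low balance of these receptors, and the mean difference of 0.21 was smaller than the SD of 0.43 in CXCL10 and 0.29 in vehicle tumours.

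Levels also varied between tumours of the same group. Over the 8 tumours Il1b spanned 2.07-fold, Il1r1 2.01-fold and Il1r2 2.12-fold. The SD of Il1b over all tumours, 0.37, exceeded that of 79.1% of panel genes, and that of Il1r2, 0.35, that of 76.6%, where the panel median was 0.25. Il1a, Il1b, Il1rn and Il1r2 shared part of their pattern. On the authors' scaling each was lowest in CXCL10 tumour 1, and the first 3 were highest in vehicle tumour 2. For Il1b, CXCL10 tumours 1 and 2 were nearly level, at log2 levels of 10.174 and 10.175. Patterns over the tumours were not compared on another scaling. Likeness was measured as the root-mean-square distance between 2 genes' log2 deviations from their own means over the 8 tumours. A distance of 0 is an identical pattern, and the difference between the groups is part of every distance. Of the 21 pairs of members the nearest were Il1a with Il1rn (0.13), Il1a with Il1r2 (0.17) and Il1r1 with Il1rap (0.19). The farthest were Il1b with Il1rl1 (0.54) and Il1b with Il1r1 (0.44). Il1rn lay 0.24 from Il1b and 0.23 from Il1r2, both above its own root-mean-square deviation of 0.20. Il1a lay 0.22 from Il1b, about the same as its own root-mean-square deviation of 0.22. The genes nearest each other were thus the ligand Il1a with the antagonist and the decoy, and Il1r1 with Il1rap, as a description of 8 tumours. The other signalling chain, Il1rl1, lay 0.24 from Il1r1 and 0.34 from Il1rap.

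**Figure D3:**
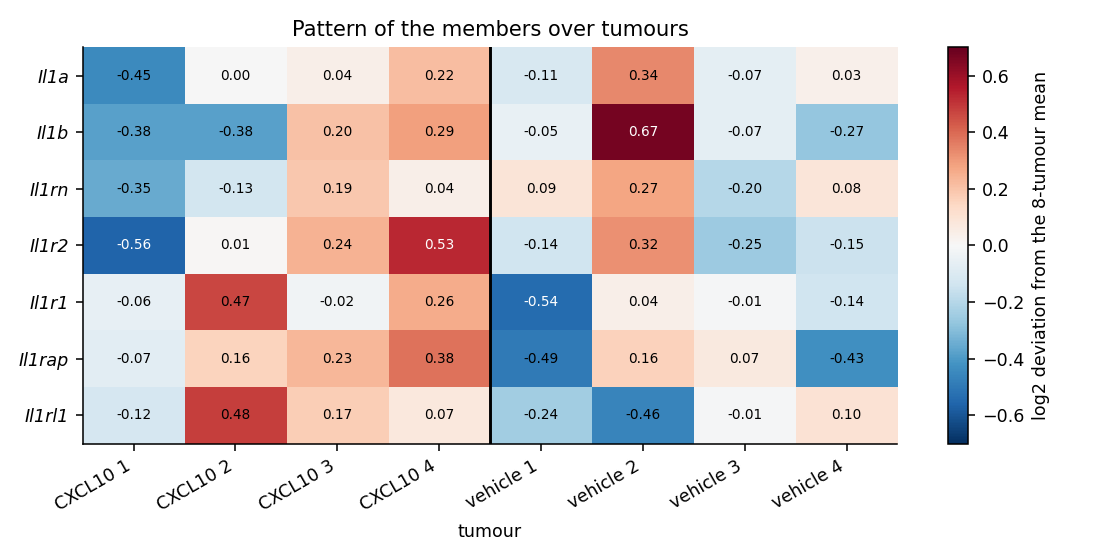
Log2 deviation of each measured member (rows) from its own mean over the 8 tumours (columns, CXCL10 left of the line and vehicle right of it). Il1a, Il1b, Il1rn and Il1r2 run from blue in CXCL10 tumour 1 to red in vehicle tumour 2, where Il1rl1 is at -0.46.

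Among the 686 panel genes that are not members, those nearest to Il1b were Csf3r, the receptor for the granulocyte growth factor G-CSF (distance 0.064), Cxcr2, the chemokine receptor of neutrophils (0.065), and Arg2, a mitochondrial arginase (0.082). The median distance to these 686 genes was 0.40, and Il1b's own root-mean-square deviation was 0.34. Csf3r had log2 levels of 9.00, 9.18, 9.58 and 9.82 in CXCL10 tumours 1 to 4, against 9.47, 10.17, 9.41 and 9.17 in vehicle tumours 1 to 4. Cxcr2 had 8.80, 8.94, 9.51 and 9.48 in CXCL10 tumours 1 to 4, against 9.31, 9.99, 9.26 and 8.95 in vehicle tumours 1 to 4. Both followed Il1b in its low treated pair, its high treated pair and its peak in vehicle tumour 2. Such following came with their choice by nearness to Il1b over these same tumours. Neither differed between the groups (differences of -0.16 and -0.19, limma adjusted p = 0.731 and 0.676).

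Markers of neutrophils were set beside Il1b. The list itself holds Csf3r and Cxcr2. Of 13 listed markers 6 were measured, none at 0 (lowest count 57), 2 with higher and 4 with lower means after CXCL10, and 0 were called. The log2 of their summed level was 12.63, 12.25, 13.35 and 13.43 in CXCL10 tumours 1 to 4, against 13.13, 13.85, 13.03 and 12.65 in vehicle tumours 1 to 4. The highest sum was in vehicle tumour 2, where Il1b was also highest, and the lowest was in CXCL10 tumour 2, one of the low treated pair for Il1b. The sum is mostly S100a8, a subunit of calprotectin, whose log2 level was highest in vehicle tumour 2 (13.27). Lcn2, a siderophore-binding protein, was highest in CXCL10 tumour 3 (11.12), with 11.08 in vehicle tumour 2 and 10.26 in CXCL10 tumour 4, where Il1b was second highest. Ltf, which encodes lactoferrin, was highest in CXCL10 tumour 4 (7.42), so these markers did not share 1 order over the tumours. Differences were -0.32 for Lcn2, 0.25 for Ltf and -0.29 for S100a8 (limma adjusted p from 0.635 to 0.667). The part of neutrophil content in the Il1b level was not tested. Summed monocyte and macrophage markers, of which 13 of 14 were measured (lowest count 6, 0 called), spanned 15.40 to 15.58 in CXCL10 and 15.37 to 15.52 in vehicle tumours. Of that list Ccr2, a chemokine receptor of monocytes, stood at 0.38, the co-receptor gene Cd14 at -0.29 and the scavenger receptor gene Marco at 0.70 (limma adjusted p from 0.394 to 0.463).

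Il1r2 lay nearest to Trem1, an activating receptor of neutrophils and monocytes (0.098), then to Mefv, which encodes pyrin (0.13), and Prdm1, a transcriptional repressor (0.16). Il1a lay nearest to the AP-1 factor Jun (0.099), Mefv (0.10) and the adaptor Sh2b2 (0.13). Il1rn lay nearest to the chemokine receptor Cxcr4 (0.11), the transcription factor Cebpb (0.12) and the integrin chain Itga5 (0.13). Mefv was thus among the nearest 3 of both Il1a and Il1r2. The median distances to the 686 genes were 0.34 for Il1r2, 0.28 for Il1a and 0.29 for Il1rn. Their own root-mean-square deviations were 0.33 for Il1r2, 0.22 for Il1a and 0.20 for Il1rn.

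The receptor chains had other neighbours. Among the genes nearest to Il1r1 were the cytokine Il6 (0.099) and Ccl7, a chemokine for monocytes (0.11). Il1rap lay nearest to Ikzf2, which encodes the T cell factor Helios (0.083), the kinase gene Mapk8 (0.099) and the chemokine Cxcl1 (0.10). For Ikzf2 the difference was 0.42 (limma adjusted p = 0.316), close to the 0.35 of Il1rap, which its choice by nearness makes likely. Ikzf2 also stands on the list of regulatory T cell markers used here. Il1rl1 had no neighbour as near, with the protease gene Ctsh at 0.14, the dendritic cell marker Cd83 at 0.14 and the kinase gene Btk at 0.15.

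**Figure D4:**
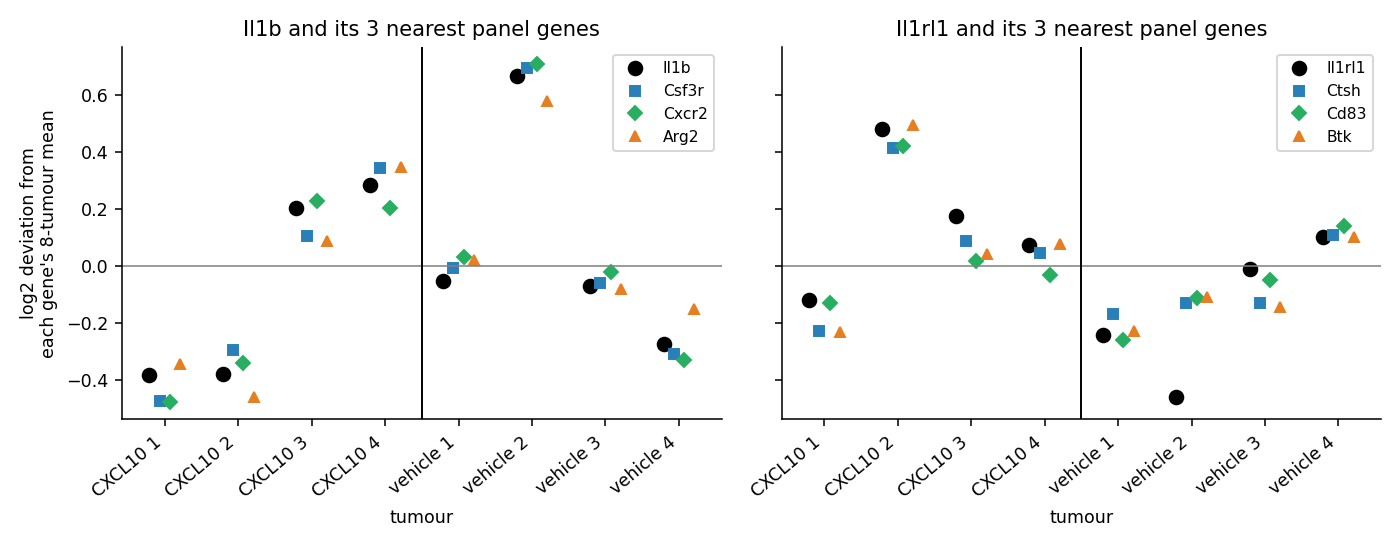
Log2 deviation from each gene's own mean over the 8 tumours for Il1b with its nearest panel genes Csf3r, Cxcr2 and Arg2 (left) and for Il1rl1 with Ctsh, Cd83 and Btk (right). CXCL10 tumours are left of each vertical line; the symbols at left lie close together in every tumour, and at right Il1rl1 lies below the others in vehicle tumour 2.

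Markers of cells that can carry ST2 were set beside Il1rl1. Of 9 mast cell markers 5 were measured, 5 of 5 with higher means after CXCL10 and 0 called (median 0.21), and Fcer1a, a chain of the IgE receptor, differed by 0.33 (limma adjusted p = 0.342). The tryptase gene Tpsab1 stood at 0.22 and Ms4a2, another chain of the IgE receptor, at 0.21 (adjusted p = 0.549 and 0.666). The list's summed log2 level ran from 9.99 to 10.81 in CXCL10 and from 9.82 to 11.15 in vehicle tumours, with a lowest member count of 29. Regulatory T cell markers had higher means in 6 of 8, with 0 called and a median of 0.32. Under the 3 other scalings 5 or 6 of 8 were higher, with medians of 0.18 to 0.24. Their sums were 10.94 to 11.14 in CXCL10 against 10.54 to 10.85 in vehicle tumours. Ctla4, an inhibitory receptor (0.62), Tnfrsf18, which encodes GITR (0.37), and Ccr8, a chemokine receptor of tumour regulatory T cells (0.35), had the smallest p of that list (limma adjusted p = 0.0915, 0.195 and 0.197). Foxp3, the defining factor of these cells, named here after its value was seen, had a lower mean, at 6.54 ± 0.28 in CXCL10 and 6.66 ± 0.28 in vehicle tumours (SD, n = 4 each; difference -0.12, limma adjusted p = 0.731). The sums of this list, alone among the cell type lists, did not overlap between the groups. Among single genes 10.8% of the panel did not overlap. Most of the sum was Ikzf2, Il2ra and Ctla4, with means of 9.15, 9.02 and 8.79 in CXCL10 tumours, and Foxp3 added little. The part of this list in the Il1rl1 level was not tested.

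Markers of stromal and epithelial cells, which can carry IL1R1 and IL1RAP, were set beside the receptor chains. Endothelial markers had lower means in 7 of 7, 0 called (median -0.41), with sums of 10.96 to 11.41 in CXCL10 and 11.38 to 11.70 in vehicle tumours, and Cdh5, the junctional cadherin, had -0.53 (limma adjusted p = 0.120). Eng, which encodes endoglin, stood at -0.41 and Vwf, the von Willebrand factor gene, at -0.67 (adjusted p = 0.167 and 0.168). Fibroblast markers had lower means in 5 of 6, 0 called (median -0.11), with sums of 15.90 to 16.55 in CXCL10 and 15.98 to 16.43 in vehicle tumours. There the PDGF receptor gene Pdgfrb stood at -0.28, the collagen gene Col1a1 at -0.27 and the protease gene Fap at 0.30 (limma adjusted p from 0.291 to 0.408). Epithelial markers had higher means in 5 of 7, 0 called, with a median of 0.069 that turned to -0.036, -0.010 and -0.047 under the 3 other scalings. The epithelial list had sums of 15.05 to 15.96 in CXCL10 and 14.57 to 15.27 in vehicle tumours, and most of each sum was Anxa1. Anxa1, which encodes annexin A1, stood at 0.82, Epcam at 0.35 and the integrin chain gene Itgb4 at -0.15 (limma adjusted p = 0.190, 0.223 and 0.619). Lowest member counts were 108, 71 and 47 in these 3 lists, and their part in the receptor levels was not tested. T cell markers had higher means in 11 of 11, with 0 called and a median of 0.24. Under the 3 other scalings 10 or 11 of 11 were higher, with medians of 0.12 to 0.16. Their sums were 11.39 to 11.67 in CXCL10 and 10.96 to 11.45 in vehicle tumours. The CD3 chain genes Cd3g and Cd3d stood at 0.43 each and the adhesion receptor gene Cd2 at 0.29 (limma adjusted p from 0.167 to 0.208).

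The IL-1 receptor genes lie side by side on mouse chromosome 1, in the order Il1r2, Il1r1, Il1rl2, Il1rl1, Il18r1 and Il18rap among protein-coding genes of the GRCm38.p6 annotation. All 6 were on the panel. In that order their differences were 0.11, 0.32, -0.26, 0.31, 0.59 and 0.53. Il18r1, a chain of the IL-18 receptor, was the one called in limma's test (adjusted p = 0.0462), at 9.39 ± 0.025 in CXCL10 and 8.80 ± 0.048 in vehicle tumours (SD, n = 4 each). Of 18 other settings it was called in 3, with limma adjusted p from 0.0244 to 0.202 and differences from 0.48 to 0.61. The 3 were array weights, the pseudocount of 1 and the filter of 20 counts. That filter removed no gene, so it repeats the first fit. Il18rap, the partner chain of Il18r1, did not pass (limma adjusted p = 0.182). Nor did Il1rl2, the receptor of IL-36, which had a lower mean (limma adjusted p = 0.394). Neighbouring genes thus differed in size and sign, and whether they differed from each other was not tested. Il1a and Il1b are likewise neighbours, on chromosome 2, with no annotated protein-coding gene between them, and had differences of -0.097 and -0.14.

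Of the other IL-1 family genes 5 of 17 listed were measured, 3 with higher and 2 with lower means, and Il18r1 alone was called. Downstream of the receptors, 19 of 22 genes of proximal signalling were measured, 11 with higher and 8 with lower means, 0 called, and a median of 0.11. The smallest p there belonged to the kinase genes Map2k1 (0.28) and Map3k7 (0.32) and the factor Atf2 (0.36), with limma adjusted p from 0.223 to 0.259. NF-kB factors and regulators, 12 of 15 measured, had 10 higher means, 0 called, and a median of 0.077, which turned to -0.028, -0.0026 and -0.026 under the 3 other scalings. Tnfaip3, the NF-kB-induced inhibitor A20, stood at 0.36 without overlap between the groups and did not pass (adjusted p = 0.195). The kinase subunit genes Chuk and Ikbkg of the same list stood at 0.43 and 0.19 (adjusted p = 0.241 and 0.428). Both signalling lists thus had medians below the panel's 0.13.

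Genes of cytokine processing had 6 of 17 listed members measured, 6 of 6 with higher means (5 or 6 of 6 under the other scalings) and 0 called, with a median of 0.26. Casp1, which encodes the protease that matures IL-1 beta, stood at 10.89 ± 0.21 in CXCL10 and 10.29 ± 0.47 in vehicle tumours (SD, n = 4 each), a difference of 0.60 (limma adjusted p = 0.195). The inflammasome adaptor Pycard and the protease gene Casp8 stood at 0.38 and 0.30 (adjusted p = 0.221 and 0.223). The processing genes had higher means and the ligand Il1b a lower one, and none of these differences passed the test.

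Genes that IL-1 classically induces had 18 of 20 members measured, 17 with higher means (13 to 15 under the other scalings), 0 called, and a median of 0.19. Ccl2, the monocyte chemokine, differed by 0.54 without overlap between the groups (limma adjusted p = 0.185), Cxcl1, a neutrophil chemokine, by 0.32 (adjusted p = 0.278) and Lif, a cytokine of the IL-6 family, by 0.32 (adjusted p = 0.342). Many of these genes also answer other cytokines. Type 2 genes and products of IL-33-responsive cells had 13 of 17 measured, 9 higher and 4 lower, 0 called, and a median of 0.11. There Il5ra, the IL-5 receptor chain, stood at 0.55, the arginase gene Arg1 at 0.39 and the IL-2 receptor chain Il2ra at 0.28 (adjusted p from 0.259 to 0.330).

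**Figure D5:**
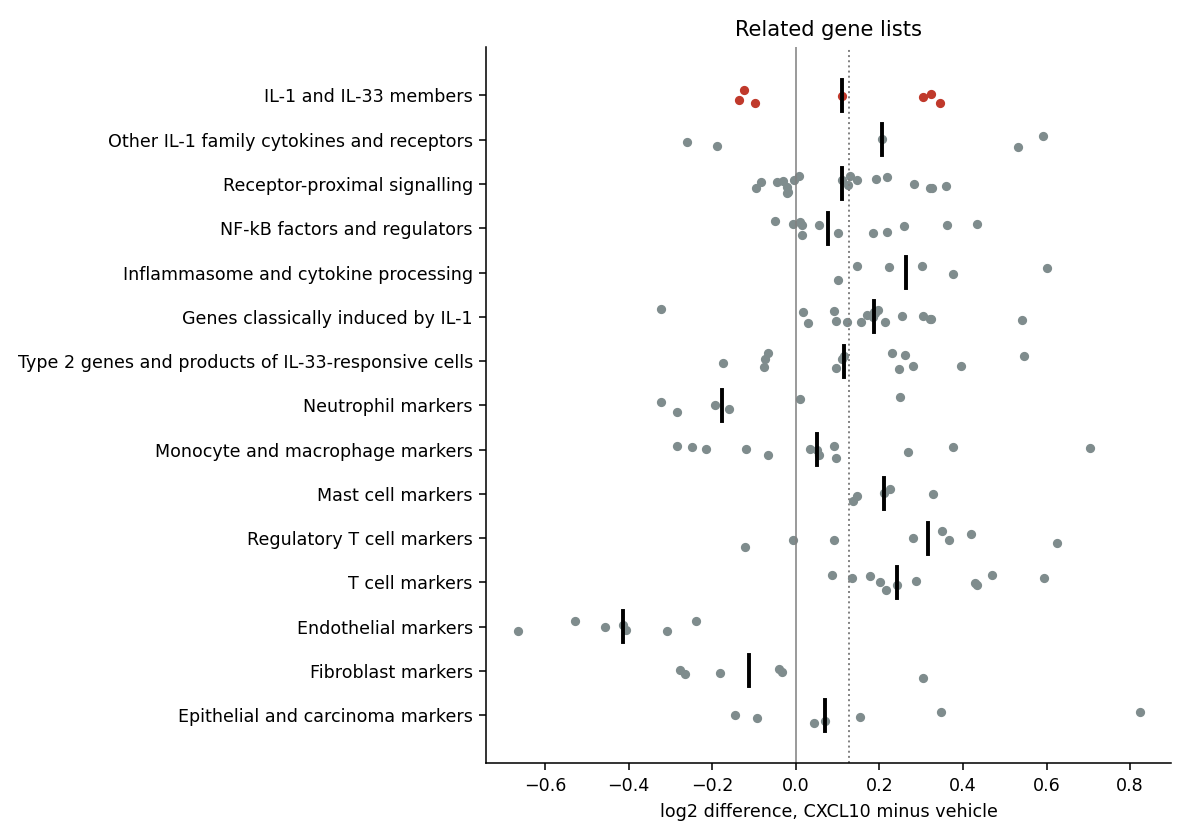
Log2 difference, CXCL10 minus vehicle, of each measured gene (points) by list, with the list median as a black bar. The dotted line is the panel median of 0.13; the members (red) fall into a lower group of 3, Il1r2 beside the panel median and an upper group of 3, and endothelial markers lie below 0.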

How the data were processed

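RNA of 8 whole tumours was measured, 4 CXCL10 and 4 vehicle, grouped by sample title. The deposited values are log2 normalized counts of 693 genes, and the deposited tables describe 782 probes, with 6 of 20 housekeeping genes marked as used by the authors in normalization. The instrument and software were not given in the sources used here. Taken out of log2, 100% of values in every tumour were whole multiples of 1 step (tolerance 0.02 counts), so whole counts were recovered, and they gave the deposited coefficient of variation in percent for 693 of 693 genes within 0.02 percentage points. Another 16 value columns match no sample label and were not used.

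The deposited log2 values entered limma 3.58.1 (lmFit, then eBayes, R 4.3.3), with group as the only term and Benjamini-Hochberg adjustment over 693 genes; the script was tested on simulated data. The members and the gene lists were chosen with earlier results of these data known, and so was plain eBayes rather than a variance trend. Named genes are all measured members, the 3 of smallest p in each other list and the 3 nearest to each member, of which 1 is not reported here; Foxp3 was added after its value was seen. Tumours of a group differed by far more than counting noise, with a lowest chi-square per degree of freedom of 20.9. Precision is limited by 4 tumours a group. Alternatives were other scalings, variance models, filters, a pseudocount of 1, a replicate block and leaving out each tumour. Promoter letters are from RefSeq.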

Additional observations from a re-analysis of the deposited data

Results flagged for a closer look

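Tumours that stood apart within their group of 4 were sought with Dixon's ratio of gap to range at its 95% critical value. It was passed in 4 of 162 gene, ratio or marker-sum sets, and chance alone passes about 1 in 20. Vehicle tumour 2 was high for Mefv (log2 level 9.63, the other vehicle tumours 9.00 to 9.10) and for Trem1 (7.22, the others 6.56 to 6.65). It was also the highest vehicle tumour for Il1a, Il1b, Il1rn and Il1r2, none of which passed that value. Mefv and Trem1 were searched as genes nearest to Il1a or Il1r2, so this likeness came in part with their choice. Vehicle tumour 4 was high for Ctsh, at 12.45 against 12.17 to 12.21. CXCL10 tumour 2 was high for the log2 of the summed fibroblast markers, at 16.55 against 15.90 to 16.01 in the other CXCL10 tumours.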

How the results depend on the processing

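In each of 18 other settings 0 of the 7 measured members were called, with a lowest adjusted p of 0.175, for Il1rap without vehicle tumour 2. Sign was kept in all 18 by Il1rn, Il1r1, Il1rap and Il1rl1, and in 17 by the other 3. The exceptions were Il1a without CXCL10 tumour 1 (0.036), Il1b without vehicle tumour 2 (0.065) and Il1r2 without CXCL10 tumour 4 (-0.047). With 1 tumour left out the difference ran from -0.19 to 0.036 for Il1a, from -0.25 to 0.065 for Il1b, from -0.21 to -0.029 for Il1rn, from -0.047 to 0.32 for Il1r2, from 0.20 to 0.40 for Il1r1, from 0.24 to 0.46 for Il1rap and from 0.20 to 0.40 for Il1rl1. An unadjusted p under 0.05 was reached by Il1rn with quantile normalization (-0.34, adjusted p = 0.284), Il1r1 with the replicate block, Il1rl1 without CXCL10 tumour 1 and Il1rap without vehicle tumour 2.

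Over the panel 2 genes were called. The count was 0 with a mean-variance trend, voom weights, panel median centring, median-of-ratios scaling and a count of at least 50 in 4 tumours, 1 with quantile normalization, 11 with array weights, and from 0 to 5 with 1 tumour left out, where 5 were called without vehicle tumour 2; the cause was not tested. With the replicate block, tumour number as a term, it was 0. Same-numbered tumours deviated together with r over genes of 0.25, -0.32, 0.23 and -0.26, so the numbers were not taken as pairs, and not every tumour was most like its own number. The panel median moved from 0.13 to 0.021 with median-of-ratios scaling, and genes of unadjusted p under 0.05 split into 61 higher and 60 lower there, 76 and 50 with centring and 56 and 64 with quantile normalization, against 104 and 28. A quasi-likelihood test was planned only if the deposited values were raw whole counts, and it was not run. Voom weights, median-of-ratios scaling and the count filters used the recovered counts. The median of the monocyte and macrophage list, 0.052, turned to -0.054, -0.028 and -0.10 with median-of-ratios scaling, centring and quantile normalization. The filter of 20 counts removed no gene.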
